A study of Mus musculus with 3 samples.

Results

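The niche cytokines described here are 10 secreted or membrane-bound growth factors by which stromal cells feed blood cells: Il7, Tslp, Flt3l and Il15 for lymphoid cells, Kitl and Thpo for stem and progenitor cells, Csf1, Csf2 and Csf3 for myeloid cells, and Tnfsf11 for osteoclasts. They were found on the array by gene symbol or older synonym in the platform's gene table. That lookup used no measured values, but the list was chosen with earlier results of these data known. Of the 10 genes, 8 had a probe, 1 each, among 16390 named genes and 23473 probes. No probe carried the name Flt3l or Thpo, and these genes were not analysed here. Of the 8 with a probe, 6 were bright enough to be compared, Csf3 was below the brightness limit, and Csf2 was blank on 2 of the 3 arrays.

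The data are 3 one-colour arrays of RNA from mouse OP9 stromal cells, with 1 array for each of 3 lines. OP9 came from the calvaria of a newborn B6C3Fe-a/a mouse with the Csf1op mutation on both copies, so all 3 lines share that mutation. The lines were OP9 itself, which served as the control, OP9 cells expressing green fluorescent protein, GFP (OP9-GFP), and OP9 cells expressing GFP and the Notch ligand Delta-like 1 (OP9-DL). All were grown in serum-supplemented medium with no further treatment, and neither the vector nor whether a line is 1 clone is given in the sources used here. With 1 array per line, no difference has a replicate check, no test was possible, and what Delta-like 1 or GFP does cannot be told apart from what else differs between the cultures.

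Blood cells in the bone marrow depend on short-range signals from the stroma. IL-7 and TSLP act through receptors that share the IL-7 receptor alpha chain and sustain early B and T cells, FLT3 ligand and stem cell factor (Kitl) act on receptor tyrosine kinases of progenitors, and IL-15, held on the cell surface by its own receptor alpha chain, sustains natural killer and memory T cells. M-CSF (Csf1), GM-CSF (Csf2) and G-CSF (Csf3) drive macrophages, mixed myeloid cells and neutrophils. RANKL (Tnfsf11) drives osteoclasts through RANK (Tnfrsf11a), and the soluble decoy osteoprotegerin (Tnfrsf11b) binds it and blocks it. OP9 cells are used as a feeder layer because they lack functional M-CSF, whose macrophages would otherwise crowd the culture, and with a Notch ligand added they lead progenitors towards T cells.

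Of the compared members, promoters are shown for Tnfsf11, Csf1 and Kitl only, as read from RefSeq's table (mouse build GRCm38.p6). They are printed because no window was read for the other compared members, Il7, Il15 and Tslp. Tnfsf11 is thus the only printed member that was 2-fold or more apart between arrays, while Csf1 and Kitl stayed within 2-fold. With so few windows, the printed promoters cannot be set against the differences between arrays. Each is the 250 bases before the annotated start, 5′ to 3′ on the gene's strand, and capitals mark a match on either strand to the cores of the TATA box (TATAAA), the CCAAT box (CCAAT) or the GC box (GGGCGG), to an AP-1 site (TGACTCA) or to the NF-kB consensus. These are Tnfsf11 at chr14:78308044-78308293, minus strand, Csf1 at chr3:107760470-107760719, minus strand, and Kitl at chr10:100015571-100015820, plus strand.
Tnfsf11: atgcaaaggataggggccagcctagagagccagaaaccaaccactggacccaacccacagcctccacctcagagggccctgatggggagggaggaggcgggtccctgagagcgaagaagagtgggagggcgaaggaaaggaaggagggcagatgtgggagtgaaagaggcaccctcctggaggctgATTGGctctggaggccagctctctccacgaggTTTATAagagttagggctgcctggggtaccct
Csf1: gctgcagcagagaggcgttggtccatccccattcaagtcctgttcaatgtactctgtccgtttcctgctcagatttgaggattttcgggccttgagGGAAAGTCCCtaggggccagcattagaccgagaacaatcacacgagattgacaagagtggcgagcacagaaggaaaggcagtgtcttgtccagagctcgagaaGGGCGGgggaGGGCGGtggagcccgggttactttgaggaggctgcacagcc
Kitl: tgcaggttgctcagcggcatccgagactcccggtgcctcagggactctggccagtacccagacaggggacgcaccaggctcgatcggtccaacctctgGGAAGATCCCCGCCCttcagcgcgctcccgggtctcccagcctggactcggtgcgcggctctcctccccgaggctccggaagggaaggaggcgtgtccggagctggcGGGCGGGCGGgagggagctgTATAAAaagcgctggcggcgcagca
The TATA box core was found in Tnfsf11, on the opposite strand 32 to 27 bases before the start, and in Kitl, on the gene's own strand 25 to 20 bases before it. Tnfsf11 also held the CCAAT box core on the opposite strand, 64 to 60 bases before the start, which the other two lacked. The GC box core occurred in Csf1 and Kitl but not in the Tnfsf11 window, and 2 of the copies in Kitl overlap each other. The NF-kB consensus was matched on the opposite strand in Csf1, 154 to 145 bases before the start, and in Kitl, 152 to 143 bases before it, where it overlaps a GC box core. None of the 3 windows held the AP-1 site. Of 32851 promoter windows of the same length, 12.4% hold the TATA box core, 33.8% the CCAAT box core, 32.7% the GC box core, 4.46% the AP-1 site and 7.25% the NF-kB consensus. The windows held 60.4% G and C for Tnfsf11, 56.4% for Csf1 and 69.2% for Kitl. A match is a match of letters, and the arrays measured no binding.

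All values are the authors' scaled intensities of a probe, set so that each array has a median of 20. Because each probe responds to its RNA in its own way, folds and differences were taken for a probe against itself across arrays. A gene was compared where its probe had a value on all 3 arrays and a mean log2 intensity of at least 2.62, which is an intensity of 6.13, and a difference of 2-fold or more was the threshold for calling it higher or lower. In these bulk cultures, fewer cells making a cytokine and less RNA per cell cannot be told apart.

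**Figure D1:**
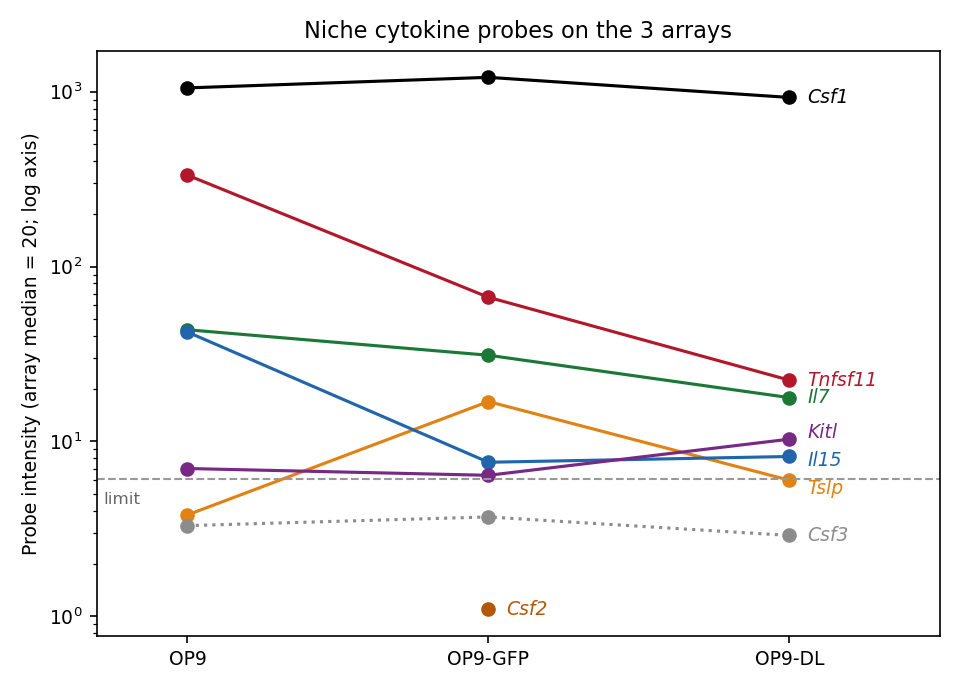
Intensity of each niche cytokine probe (vertical, log axis, array median 20) in OP9, OP9-GFP and OP9-DL, with 1 array per line and lines joining the values of 1 probe. Tnfsf11 ran from 332.9 down to 22.4 and Csf1 stayed between 926.1 and 1206.7, and the dotted probe, Csf3, and the single point of Csf2 lay below the dashed brightness limit of 6.13.

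Of the compared members, Tnfsf11, the osteoclast factor RANKL, differed most. Its probe read 332.9 in OP9, 66.7 in OP9-GFP and 22.4 in OP9-DL. All 3 arrays were thus at least 2-fold apart from each other, with OP9 highest and OP9-DL lowest. Tnfsf11 was 4.99-fold lower in OP9-GFP than in OP9, a log2 difference of -2.32 that 0.976% of the 15581 compared probes matched or passed in that direction. It was a further 2.98-fold lower in OP9-DL than in OP9-GFP (log2 -1.57, matched or passed by 1.07% of probes), and 14.9-fold lower than in OP9 (log2 -3.89, matched or passed by 55 probes, 0.353%).

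The receptors of Tnfsf11 had other patterns. The decoy Tnfrsf11b read 308.5 in OP9, 1047.3 in OP9-GFP and 1252.9 in OP9-DL. It was 3.39-fold and 4.06-fold higher on the arrays of the GFP-carrying lines than in OP9, while these lines lay within 2-fold of each other (log2 0.26). Tnfrsf11a, the signalling receptor RANK, which osteoclast precursors carry, read 7.1, 10.2 and 8.6, close to the brightness limit and within 2-fold. With the ligand lower and the decoy higher, the log2 difference of Tnfsf11 less that of Tnfrsf11b was -4.08 for OP9-GFP against OP9 and -5.92 for OP9-DL against OP9. The ratio of ligand to decoy intensity was therefore 16.9-fold and 60.4-fold lower than in OP9, and 3.56-fold lower in OP9-DL than in OP9-GFP.

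**Figure D2:**
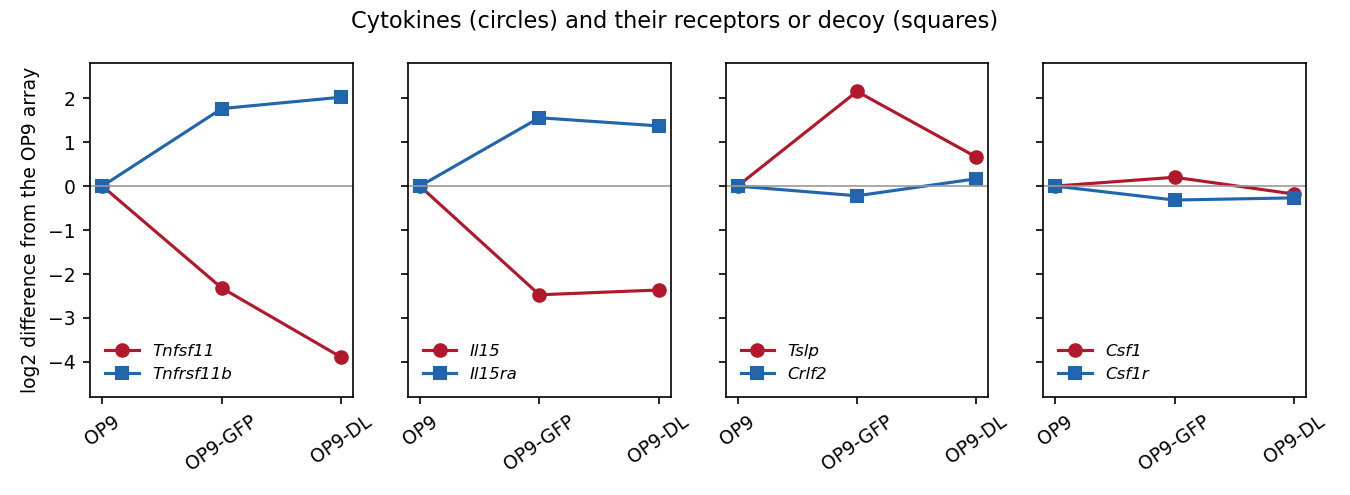
Log2 difference from OP9 (vertical) of 4 cytokines (red circles) and of a receptor or decoy of each (blue squares) on the 3 arrays, 1 array per line. Tnfsf11 and Il15 lay below 0 in OP9-GFP and OP9-DL while Tnfrsf11b and Il15ra lay above 0, and Csf1 and Csf1r stayed near 0.

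Il15 separated the parental line from both lines with GFP. Its probe read 42.2 in OP9, 7.6 in OP9-GFP and 8.2 in OP9-DL. It was 5.55-fold lower in OP9-GFP (log2 -2.47, matched or passed by 0.789% of probes) and 5.15-fold lower in OP9-DL (log2 -2.36, 1.31% of probes), and both low readings were only just above the brightness limit. Between OP9-DL and OP9-GFP the log2 difference was 0.11. Il15ra, which presents IL-15 on the cell surface, went the other way: it read 35.2, 103.4 and 90.9, and was 2.94-fold higher in OP9-GFP and 2.58-fold higher in OP9-DL than in OP9.

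Il7, the main stromal factor for early B and T cells, was graded across the lines. Its probe read 43.5 in OP9, 31.1 in OP9-GFP and 17.8 in OP9-DL. OP9-DL was 2.44-fold below OP9 (log2 -1.29, matched or passed by 4.32% of probes). OP9-GFP lay between them, within 2-fold of each. The log2 difference was -0.48 for OP9-GFP against OP9, matched or passed by 18.7% of probes. For OP9-DL against OP9-GFP it was -0.81, matched or passed by 4.26%. Il7r, the receptor chain on lymphoid cells, was dim or blank, with 1.4 in OP9, 1.3 in OP9-GFP and no value in OP9-DL.

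Tslp, an epithelial and stromal cytokine that acts on dendritic and early lymphoid cells, was highest in OP9-GFP. Its probe read 3.8 in OP9, 16.9 in OP9-GFP and 6.0 in OP9-DL, so that only the OP9-GFP reading lay above the brightness limit, and the gene was compared only through the array where it was high. OP9-GFP was 4.45-fold above OP9 (log2 2.15, matched or passed by 0.475% of probes) and 2.82-fold above OP9-DL, and OP9-DL was 1.58-fold above OP9. Because the other readings were dim, the sizes of these folds are uncertain: with a constant of 2 added to every intensity, the log2 difference of OP9-GFP against OP9 was 1.70. Crlf2, the chain that gives the TSLP receptor its specificity, read 15.5, 13.3 and 17.4, within 2-fold on all arrays.

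Kitl, the stem cell factor for progenitors and mast cells, stayed within 2-fold. Its probe read 7.0 in OP9, 6.4 in OP9-GFP and 10.3 in OP9-DL. The OP9-DL reading was the highest, 1.61-fold above OP9-GFP (log2 0.69, matched or passed by 5.57% of probes) and 1.47-fold above OP9. All 3 readings were near the brightness limit. Its receptor Kit, a mark of progenitors and mast cells, was measured in OP9 alone, at 1.6, and Flt3, the receptor of FLT3 ligand, also in OP9 alone, 2.5.

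Csf1 RNA was bright on every array although all 3 lines derive from mice with the op mutation. The op allele is an insertion in the coding sequence that shifts the reading frame, so no functional M-CSF is made, and a probe for the RNA does not show whether protein is made. The Csf1 probe read 1049.9 in OP9, 1206.7 in OP9-GFP and 926.1 in OP9-DL. The log2 differences were 0.20 for OP9-GFP against OP9, -0.18 for OP9-DL against OP9 and -0.38 for OP9-DL against OP9-GFP, all within 2-fold. Of the probes compared, 35.7%, 35.4% and 16.9% differed as much or more in the same direction. Csf1r, its receptor on macrophages, read 24.8, 19.9 and 20.6, and Il34, the other ligand of that receptor, read 13.8, 11.6 and 10.7, both within 2-fold on all arrays.

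The other colony-stimulating factors were at the bottom of the measured range. Csf3 read 3.3 in OP9, 3.7 in OP9-GFP and 2.9 in OP9-DL, and Csf2 was measured in OP9-GFP alone, at 1.1, where the lowest value of that array was 1.0. No fold was taken from these readings, which do not show that the genes are silent. Csf3r read 2.1, 1.9 and 2.2, also below the limit, and Csf2ra read 17.0, 11.7 and 12.1, within 2-fold.

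Counted together, 2 of the 6 compared members were 2-fold or more apart between OP9-DL and OP9-GFP, beside 5.03% of all compared probes, and both, Tnfsf11 and Tslp, were lower in OP9-DL (2.72% of probes were lower and 2.31% higher). Between OP9-GFP and OP9 there were 3 of 6, beside 11.6% of probes: Tnfsf11 and Il15 were lower (6.75% of probes) and Tslp was higher (4.86%). Between OP9-DL and OP9 there were again 3 of 6, beside 11.2% of probes, and Tnfsf11, Il15 and Il7 were all lower (6.91%), with none higher (4.31%). The median log2 difference of the 6 members, Tslp included, was -0.59, -0.31 and -0.74 in these comparisons. The median of all compared probes was -0.01, 0.02 and 0.02. Tslp had to differ in order to be compared at all, so the counts are also given without it: 1 of 5, 2 of 5 and 3 of 5 members were then past 2-fold, all of them lower. The median log2 difference of those 5 was -0.38, -0.48 and -1.29. Any 2 of the comparisons share an array, so the counts do not support each other. The members were chosen with earlier results of these data known, so the counts are not independent evidence. Kitl, Il15 and Tslp belonged to the dimmest 25% of the compared probes, in which 6.52%, 9.78% and 10.6% of probes were 2-fold or more apart.

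**Figure D3:**
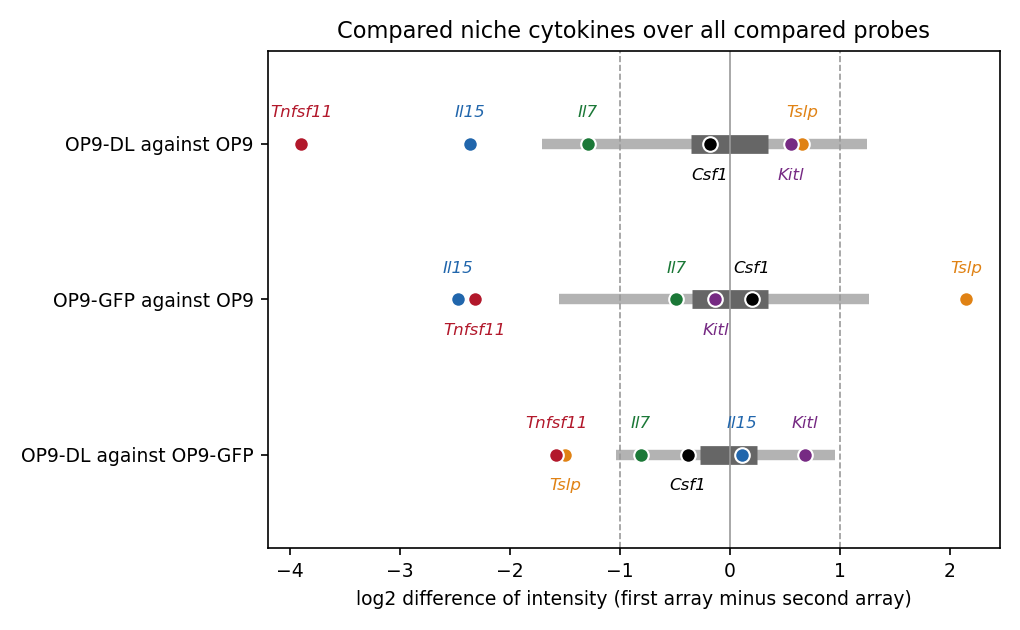
Log2 difference (horizontal, first array minus second) of the 6 compared niche cytokines (points) in 3 comparisons of 1 array each, over bars that hold the middle 95% (light) and the middle 50% (dark) of the compared probes, with dashed lines at 2-fold. Tnfsf11 lay below the light bar in every comparison, Il15 in both comparisons with OP9, and Csf1 stayed within 2-fold throughout.

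Of the 6 compared members, Tnfsf11, Il15 and Il7 were 2-fold or more apart between some pair of arrays, as were 17.6% of all compared probes. Tslp was too, but it was compared only through its high OP9-GFP reading and so had to differ. Nearness of pattern was the Euclidean distance between log2 values centred on each gene's mean over the 3 arrays. Each of the members named was set beside the 3 genes with the nearest pattern. For Tnfsf11 these were Parp12 (distance 0.05), Rgcc (0.21) and Plscr2 (0.22), and 12 genes lay within a distance of 0.5. Parp12 read 256.4, 49.8 and 16.5. For Il15 they were Smim14 (0.13), Wbp1 (0.15) and Plekhg6 (0.17), with 58 genes within 0.5. For Tslp they were Maff (0.09), Ctla2a (0.11) and Srxn1 (0.18), with 38 genes within 0.5, and Maff, a small transcription factor of the stress response, read 56.9, 264.2 and 97.7. For Il7 they were Dbnl (0.04), 0610040J01Rik (0.05) and Tdrkh (0.06), but 760 genes lay within 0.5, so its pattern was a common one. With 3 arrays, patterns of unrelated genes coincide easily, and these names are a description only. The pattern of Tslp also rests on readings below the brightness limit in OP9 and OP9-DL.

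Most compared receptors and signal carriers of the cytokines lay within 2-fold, as did most of all compared probes. Of 14 receptors and decoys, 6 were compared. Tnfrsf11b and Il15ra were 2-fold or more higher in OP9-GFP and OP9-DL than in OP9, beside 4.86% and 4.31% of all compared probes. None of the 6 differed so much between OP9-DL and OP9-GFP, where only 5.03% of probes did. Il2rg, the common gamma chain of the IL-7 and IL-15 receptors, read 5.8, 3.2 and 3.4, below the limit. No probe carried the name Il2rb or Csf2rb. Of 13 compared signal carriers, Stat3, through which IL-6 and G-CSF signal, read 324.2 in OP9, 179.5 in OP9-GFP and 88.4 in OP9-DL. It was 2.03-fold lower in OP9-DL than in OP9-GFP, only just past the threshold, and 3.67-fold lower than in OP9. Stat5a, which carries IL-7 and GM-CSF signals, read 58.6, 23.9 and 28.4, and was 2.45-fold and 2.06-fold lower in OP9-GFP and OP9-DL than in OP9. The other 11, among them Stat5b, Jak1, Jak2, Jak3 and the feedback inhibitors Socs1, Socs2, Socs3 and Cish, lay within 2-fold in all comparisons. Over all compared probes, 17.6% were 2-fold or more apart between some pair of arrays.

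Of 25 other factors by which stroma supports blood cells, 20 were compared. Between OP9-DL and OP9-GFP, 1 was higher and 3 were lower, beside 2.31% and 2.72% of all compared probes. Igf1, a growth factor for early B cells and myeloid cells, was higher. Cxcl12, the chemokine that retains stem cells, was 2.21-fold lower (4411.3 in OP9-GFP and 1997.4 in OP9-DL), and Il6 and the growth factor Ptn were also lower. Between OP9-GFP and OP9, 2 were higher and 3 lower, beside 4.86% and 6.75% of probes. Ptn and Clcf1, a cytokine of the IL-6 family, were higher, Clcf1 by 2.53-fold, while Angpt1, a ligand of the Tie2 receptor on stem cells, Hgf and Spp1, the matrix protein osteopontin, were 2.39-fold, 2.37-fold and 4.66-fold lower. Angpt1 read 197.5 in OP9, 82.7 in OP9-GFP and 69.0 in OP9-DL. Spp1 read 26149.4, 5610.9 and 6877.5. Between OP9-DL and OP9, 1 was higher and 4 lower, beside 4.31% and 6.91% of probes. Igf1 was higher (log2 3.33), and Il6, Angpt1, Spp1 and the growth factor Fgf7 were 6.42-fold, 2.86-fold, 3.80-fold and 2.10-fold lower.

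Il15 is itself a known interferon-induced gene, and most of the compared interferon-induced genes were also lower in OP9-GFP and OP9-DL than in OP9. Of 9 such genes compared, 7 were 2-fold or more lower in OP9-GFP than in OP9, and the same number in OP9-DL, beside 6.75% and 6.91% of all compared probes. This list was chosen with earlier results of these data known, so its direction is not independent evidence. Their median log2 differences were -3.49 and -2.73. Irf1, a transcription factor that acts on Il15, read 231.0 in OP9, 54.2 in OP9-GFP and 34.7 in OP9-DL. Between OP9-DL and OP9-GFP, 2 of the 9 were higher and 1 was lower, beside 2.31% and 2.72% of probes, with a median log2 difference of 0.67. Irf7 and Stat2 were higher, 2.23-fold and 2.29-fold, and Psmb8 was 8.44-fold lower. The log2 difference of Il15 was 0.11, so some of these genes also differed between arrays where Il15 stayed within 2-fold. Irf9 (240.4, 44.2 and 80.5), Ifit3 (269.5, 5.4 and 10.6) and Oas2 (295.7, 7.9 and 12.6) were the other genes lower than in OP9. Mx1 and Nlrc5 lay within 2-fold. The part of interferon signalling in the difference of Il15 was not tested.

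The labelled cell type was checked against markers. Of 8 stromal markers, 6 were compared, and Col1a2 read between 5145.3 and 6612.6, while Thy1 and Eng were below the limit on average. The summed stromal intensity, in which bright probes such as Cxcl12 weigh most, was 12165.4, 11739.1 and 8406.0 in OP9, OP9-GFP and OP9-DL. In each comparison with OP9, 1 of the 6 was higher and 1 lower. Of all compared probes, 4.86% were higher and 6.75% lower in OP9-GFP, and 4.31% and 6.91% in OP9-DL. Between OP9-DL and OP9-GFP, only Cxcl12 was past 2-fold, lower in OP9-DL, beside 2.72% of probes. Pdgfra, a receptor that marks mesenchymal progenitors, read 800.6, 166.1 and 127.1, while Col1a1, a chain of type I collagen, read 269.3, 712.9 and 557.0. The part of the stromal markers in the differences of Tnfsf11 and Il15 was not tested. Of 12 blood cell markers, 11 had a probe and 6 were compared, and Ptprc, carried by nearly all white blood cells, read 2.1, 2.5 and 2.8. The compared ones were Gata1 (19.1, 28.7 and 30.5), Spi1 (10.4, 11.2 and 8.9), Cd79a (4.9, 7.5 and 6.9), Cpa3 (4.9, 8.1 and 6.7), Tpsab1 (20.6, 9.0 and 818.9) and Cd48 (2.1, 3.0 and 114.4). Cd48 was compared only through its high OP9-DL reading. Tpsab1 and Cd48, 2 of the 6, were 2-fold or more higher in OP9-DL than in OP9-GFP and OP9, beside 2.31% and 4.31% of all compared probes. Tpsab1 was 91.0-fold above OP9-GFP and Cd48 54.5-fold above OP9, each the largest rise of any compared probe, though the size for Cd48 is uncertain. Tpsab1 was also 2.29-fold lower in OP9-GFP than in OP9, beside 6.75% of probes. The summed intensity of the blood cell markers was 71.4, 76.4 and 997.6, and 48.7, 64.4 and 64.3 without Tpsab1 and Cd48. The part of Tpsab1 and Cd48 signal in the OP9-DL readings of the cytokines was not tested. The endothelial markers Pecam1, Cdh5 and Tek were blank on at least 1 array each, but Kdr, a VEGF receptor, read 25.5, 18.6 and 19.7, within 2-fold, and the epithelial markers Epcam and Cdh1 read at most 6.7.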

How the data were processed

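The authors deposited 1 linear probe intensity per probe and array, scaled to an array median of 20, which the values themselves show. Per the labels' protocols, total RNA was amplified to amino allyl RNA and coupled to Cy5, with 1 colour per array. For the scanner, the background correction, the rule for blank cells and the array's genome build, the sources used here give nothing. Of 23473 probes, between 6.32% and 6.62% were blank per array. With 3 arrays and 1 per line, their number limits the precision.

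No further scaling was applied and log2 was taken with no constant. Of 20775 probes with a value on all arrays, the 15581 at or above the 25th percentile of mean log2 were compared. Symbols (16631 probes had 1) were updated through a gene table of GRCm38.p6, where 3947 were renamed by a synonym. Members and lists were chosen with earlier results of these data known. All members are named, and all receptors except 1 that is not reported here. Of the signal carriers, other niche factors and interferon-induced genes, those past 2-fold in any comparison and Il34 are named by rule, and the rest for context after their values were seen. The 3 nearest patterns are named per member. Promoter windows of 6 of the 10 members were read from RefSeq's table. Alternatives were quantile, median and lowess (span 0.3) scaling, other brightness limits, a constant of 2, blanks at the array minimum, a threshold of 1.5-fold or 3-fold, and taking a gene's brightest probe. The counting was tested on simulated data in which only brighter probes were moved, so it was not tested for shifts in the dimmest compared probes. Python 3.11.15, numpy 2.4.6, pandas 2.3.3, statsmodels 0.14.6 and matplotlib 3.10.9 were used.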

Additional observations from a re-analysis of the deposited data

How the results depend on the processing

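Between OP9-DL and OP9-GFP, 2 members were past 2-fold, and this count became 4 at a 1.5-fold threshold, with Il7 lower and Kitl higher beside Tnfsf11 and Tslp, 0 at a 3-fold threshold, and 1 (Tnfsf11) with the brightness limit at the 50th percentile, which left 3 members compared. Between OP9-GFP and OP9 the count of 3 became 1 (Tnfsf11) with that limit, which removed Il15 and Tslp. Leaving out Tslp, chosen after seeing the data because it passes the brightness limit only through its high array, gave 1 (Tnfsf11) for OP9-DL against OP9-GFP, 2 for OP9-GFP against OP9 and 3 for OP9-DL against OP9. In the other alternatives of these comparisons, and in all those of OP9-DL against OP9, the counts stayed within 1.5 times, and no compared member's log2 difference changed sign or side of 2-fold where it could be computed. The log2 difference of Tnfsf11 for OP9-DL against OP9 ran from -3.89 to -3.78, that of Il15 for OP9-GFP against OP9 from -2.50 to -2.20, and that of Tslp from 1.70 to 2.18. Without a brightness limit Csf3 entered with log2 differences of -0.35, 0.17 and -0.19. No paired analysis was possible because each line has 1 array, and for the same reason no array could be left out. Blank and dim readings near the bottom of the range limit Csf2, Csf3, Kitl and Tslp.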
